A study of Mus musculus with 10 samples.

Results

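The 8 genes described here, Ager, Hopx, Aqp5, Pdpn, Rtkn2, Akap5, Clic5 and Emp2, are markers of the alveolar type 1 cell, and they were taken by gene name from an expression table of 54532 genes. All 8 had a row in the table and all 8 passed the filter on low values. The samples were whole lungs of 10 wild-type (WT) C57BL/6J mice at P30, with 5 mice in each group. In the increased pulmonary flow (IPF) group, a fistula between the abdominal aorta and the inferior vena cava (ACF) was made with a fine needle at P7, which sends arterial blood back to the right heart and through the lungs. The sham group had the same anesthesia and laparotomy at P7 with no puncture. No transgene, drug or diet distinguished the groups. The comparison asks whether the type 1 cell genes of the lung differed in RNA level after the period of raised flow. That period began while the alveoli were still being formed, and the paper places P30 in the stage of lung maturation. The labels give each sample as a separate lung without naming litters, so p-values measure the spread between these 10 samples.

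None of the 8 genes passed the test of IPF against sham after adjustment for all genes tested, where 5.85% of all genes did. None had groups that did not overlap, against 7.29% of all genes. Pdpn had the largest difference on the log2 scale, with a mean of 71.5 ± 9.04 FPKM (fragments scaled by gene length and library size; SD, n = 5) in IPF and 88.3 ± 8.60 in sham. Aqp5 and Clic5 also had lower means in IPF, with fitted ratios of IPF to sham of 0.863 and 0.860, and Akap5 had a higher mean, with a ratio of 1.16. Ager, the most abundant of the 8, had a mean of 848 ± 93.2 FPKM in IPF and 882 ± 34.9 in sham. Among 20 other genes enriched in type 1 cells, 5 were lower in IPF and 1 was higher after the same adjustment, led by Gramd2 and Gprc5a.

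Alveolar type 1 cells are the thin, very wide epithelial cells that line most of the gas exchange surface, where they share a basement membrane with capillary endothelium. Type 2 cells, their cuboidal neighbours, make surfactant and act as progenitors that flatten into type 1 cells in development and after injury. Ager encodes RAGE, a multiligand receptor of the basal membrane of type 1 cells. Pdpn encodes podoplanin, a mucin-type glycoprotein of the apical membrane, and Aqp5 encodes the apical water channel aquaporin 5. Emp2 encodes a tetraspan protein of caveola-rich membrane and Clic5 a chloride intracellular channel family protein tied to the cortical cytoskeleton. Akap5 encodes an anchoring protein for protein kinase A, Rtkn2 a protein of the rhotekin family, and Hopx a homeodomain protein that does not bind DNA and is shared by type 1 cells and their forerunners. Podoplanin also marks lymphatic endothelium and mesothelium, so the RNA of whole lung holds more than 1 source of it.

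RNA of 15483046 to 19026843 reads per sample was assigned to genes, as recovered from the deposited values. The Y-linked Ddx3y was listed at 0 in all 5 IPF lungs and at 14.3 to 21.4 FPKM in sham, while Xist was at 26.8 to 43.2 FPKM in IPF and at 0.0301 to 0.0767 in sham. The sex-linked genes thus divided the samples exactly as the surgery did. The effects of flow and of sex cannot be told apart in any comparison reported here. The paper describes pups of both sexes, balanced by sex between the groups where feasible, which these lungs do not show. Of 13 circadian clock genes, 12 passed the test, 3 higher and 9 lower in IPF, and the part of collection time in the results was not tested. One library, sham replicate 1, stood apart in having 25486 genes above 0 against 22475 to 23575 in the others, and calls that change without it are given beside their results. In whole lung, fewer cells of a type and less RNA per cell cannot be told apart.

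Promoter sequence is shown for the members with an unadjusted p under 0.05, Pdpn and Aqp5, since both held the 6 letters CACGTG, the E-box that reads the same on both strands and that basic helix-loop-helix factors can bind. The search was chosen after their values were seen. The sequences are from RefSeq on GRCm38.p6, which had a promoter entry for 7 of the 8 members, all but Rtkn2. The capitals mark the E-box, which lies 144 bases before the RefSeq start of Pdpn and 87 before that of Aqp5. For Pdpn that start is the start of the gene in the authors' table, but for Aqp5 the table has the gene begin 246 bases further upstream, so that by the table the E-box of Aqp5 lies inside the gene. For Pdpn the 250 bases before the start are shown, on the minus strand of chr4:143299565-143299814, and for Aqp5 only the 30 bases around the motif, on the plus strand of chr15:99590929-99590958.
Pdpn: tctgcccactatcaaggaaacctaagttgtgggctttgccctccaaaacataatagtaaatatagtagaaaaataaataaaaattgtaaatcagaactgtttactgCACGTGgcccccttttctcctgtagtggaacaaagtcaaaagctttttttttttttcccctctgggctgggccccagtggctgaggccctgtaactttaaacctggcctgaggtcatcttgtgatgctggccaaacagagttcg
Aqp5: tgccgcgtgggtCACGTGgcccgggcgggt

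The E-box was in 2 of 7 member promoters and in 6.02% of 32851 RefSeq promoters of the same 250 bases. The GC box GGGCGG, read on both strands, was in 4 of 7 (Aqp5, Akap5, Clic5 and Emp2) and in 32.7% of all promoters. None of the 7 held the TEAD motif GGAATG (12.6% of all), the NKX2-1 core CACTTG (11.6%) or the TATA letters TATAAA (12.4%). A match is a description of the letters in this window, and no match says only that these letters are not in it.

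The order of the members by level, on the FPKM scale that divides by gene length, was Ager, Hopx, Emp2, Clic5, Aqp5, Pdpn, Akap5 and Rtkn2. Ager had a mean of 865 FPKM over the 10 lungs, the rank of 22 among all genes in the table. Rtkn2, the lowest, had a mean of 40.7 FPKM, above 94.2% of the genes tested. Each of the 8 markers of the type 1 cell was present in every lung, with at least 2061 reads. Ager made up 46.1 to 51.5% of the summed FPKM of the 8 genes, which ran from 1494 to 1936 in IPF and from 1724 to 1932 in sham. Ager, Clic5, Aqp5 and Rtkn2 held the same rank among the 8 in all 10 lungs. Hopx exceeded Emp2 in 9 of 10 lungs and Pdpn exceeded Akap5 in 7 of 10, and the ranges of each of these pairs overlapped. The ranges of neighbours did not overlap for Ager and Hopx, for Clic5 and Aqp5, or for Akap5 and Rtkn2.

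**Figure D1:**
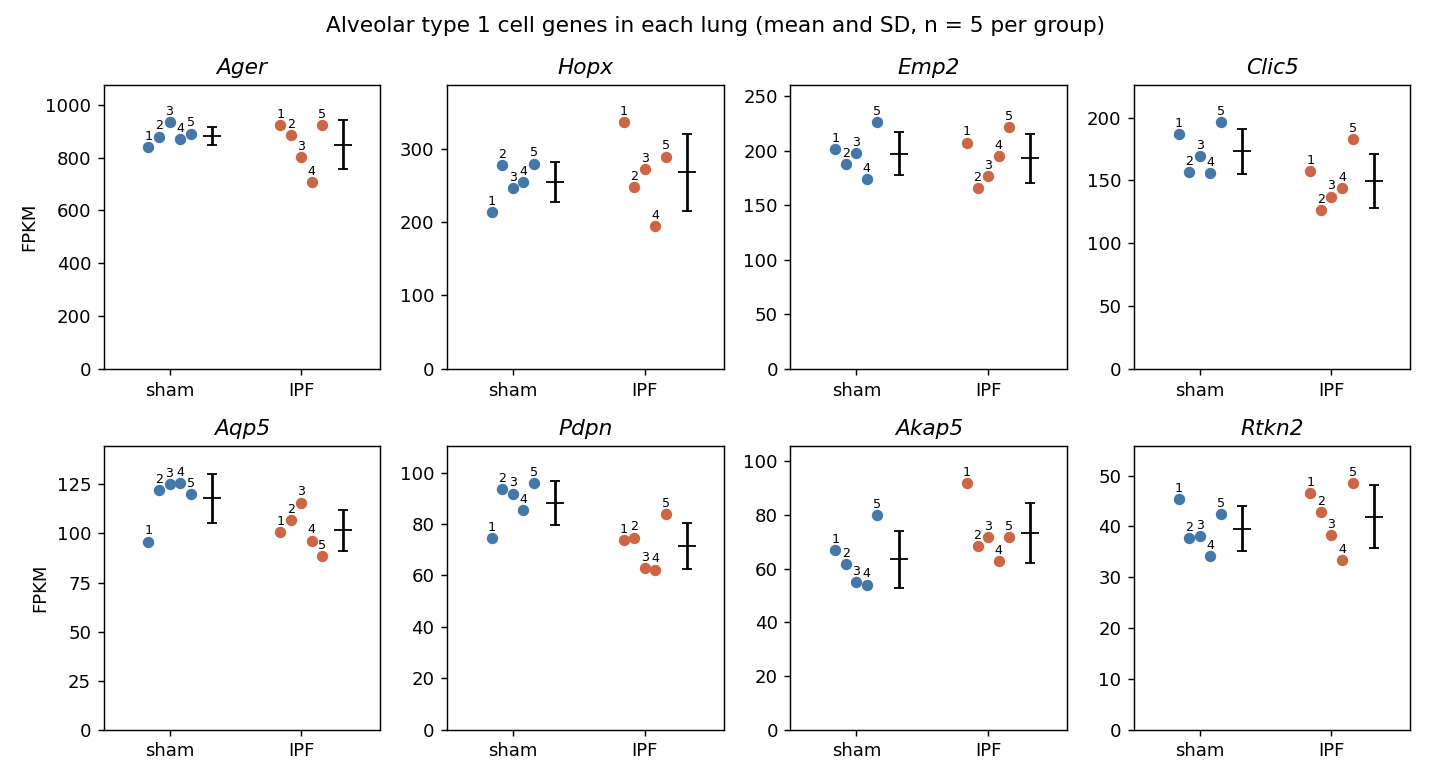
FPKM of each of the 8 type 1 cell genes in the 5 sham and 5 IPF lungs, 1 panel per gene with its own axis from 0; points are lungs with their replicate number, and bars are the group mean and SD. The ranges of the groups overlap in all 8 panels, and the largest difference on the log2 scale is that of Pdpn, 71.5 against 88.3 FPKM.

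Pdpn (ENSMUSG00000028583, GRCm38 chromosome 4, 143267431 to 143299564, minus strand), the podoplanin gene, was measured in IPF replicates 1 to 5 at 73.8, 74.7, 62.8, 62.2 and 83.7 FPKM. In sham replicates 1 to 5 it was at 74.7, 93.7, 91.8, 85.5 and 96.1 FPKM. All 5 IPF lungs were below the sham mean and 3 of 5 were below every sham lung, while sham replicate 1 lay among the IPF lungs. The log2 fold change (IPF against sham, on log2(FPKM + 0.1)) was -0.31 (SE 0.098, 95% interval -0.52 to -0.094), with an adjusted p of 0.0979 in limma. Leaving out sham replicate 1 gave an adjusted p of 0.0458, leaving out IPF replicate 5 gave 0.0361, and the other 8 libraries left out in turn gave no call. It also passed with quantile normalization (adjusted p = 0.0302) and with array weights (0.0189).

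Podoplanin RNA of lymphatic endothelium and mesothelium would add to the same values, and the lists for these cells were read beside it. None of 6 lymphatic and none of 5 mesothelial genes passed the test, with 4 and 5 positive log2 fold changes and medians of 0.075 and 0.20. Summed lymphatic FPKM was 161 to 295 in IPF and 248 to 283 in sham, most of it from Lyve1, a hyaluronan receptor that lung macrophages can also carry, at 179 ± 57.1 in IPF and 245 ± 13.0 in sham (log2 fold change -0.50, adjusted p = 0.128 in limma). Without IPF replicate 5, where Pdpn also passed, Lyve1 passed at a log2 fold change of -0.67 (adjusted p = 0.00486). The defining lymphatic factor Prox1 was near the floor, at 0.424 to 0.637 FPKM in IPF and 0.336 to 0.629 in sham. Ccl21a, a lymphatic chemokine with near-identical gene copies whose reads may be split, was at 3.66 to 35.3 FPKM in IPF and 2.12 to 22.9 in sham (adjusted p = 0.410). Summed mesothelial FPKM was 65.3 to 115 in IPF and 52.6 to 106 in sham, with Msln at a log2 fold change of 0.20 (adjusted p = 0.739) and Upk1b at 0.19 (adjusted p = 0.474). The part of these cells in the Pdpn value was not tested.

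Aqp5 (ENSMUSG00000044217, chromosome 15, 99590782 to 99594829, plus strand) was measured at 100.8, 107, 116, 96.4 and 88.5 FPKM in the IPF replicates in order. The sham replicates had 95.9, 122, 125, 126 and 120.1 FPKM. Each IPF lung lay below 4 of the 5 sham lungs, and sham replicate 1 fell inside the IPF range. The log2 fold change was -0.21 (SE 0.094, 95% interval -0.42 to -0.0054), with an adjusted p of 0.242, and without sham replicate 1 it was -0.28 with an adjusted p of 0.0586 in limma.

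Aqp5 is also made by serous and other gland cells of the upper airway, and in the distal lung it is used as a marker of type 1 cells. Which cells made it in these whole lungs was not tested. Of 9 other genes of alveolar water and ion transport, none passed the test, and their median log2 fold change was -0.11. Aqp1, the endothelial water channel, was at 368 ± 31.2 FPKM in IPF and 332 ± 25.8 in sham (log2 fold change 0.15, adjusted p = 0.388).

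Clic5 (ENSMUSG00000023959, chromosome 17, 44188584 to 44280172, plus strand) was at 158, 126, 137, 144 and 183 FPKM in the IPF lungs. It was at 187, 157, 169.6, 156 and 197 FPKM in the sham lungs. Of the 5 IPF lungs, 3 were below every sham lung and IPF replicate 5 was among the highest of the 10. The log2 fold change was -0.22 (SE 0.107, 95% interval -0.45 to 0.018) and the adjusted p was 0.295 in limma.

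Ager (ENSMUSG00000015452, chromosome 17, 34597862 to 34600936, plus strand) was at 922, 885, 803, 706 and 924 FPKM in IPF and at 839, 879, 935, 869 and 891 in sham. IPF replicates 3 and 4 were below every sham lung and the other 3 were inside the sham range. The log2 fold change was -0.064 (SE 0.107, adjusted p = 0.797 in limma), and its 95% interval of -0.30 to 0.17 corresponds to a ratio of 0.813 to 1.13. With quantile normalization the log2 fold change was -0.23 (adjusted p = 0.291).

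The ligands and partners of RAGE were read beside its gene. All 7 genes of that list had a positive log2 fold change and none passed the test. App, which encodes the precursor of a RAGE ligand, was at 123 ± 10.5 FPKM in IPF and 121 ± 6.88 in sham (adjusted p = 0.936). S100a9, a neutrophil ligand of RAGE, was at 65.9 ± 67.0 and 22.2 ± 14.8 FPKM (log2 fold change 1.46, adjusted p = 0.186), with 185 FPKM in IPF replicate 5 alone.

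Hopx (ENSMUSG00000059325, chromosome 5, 77086988 to 77115121, minus strand) was at 336, 247, 272, 194 and 289 FPKM in IPF and at 214, 278, 246, 255 and 279 in sham. The IPF group held both the highest and the lowest of the 10 lungs, IPF replicates 1 and 4. Its log2 fold change was 0.057 (SE 0.138, 95% interval -0.24 to 0.36, adjusted p = 0.868 in limma), and without sham replicate 1 it was -0.0036. The antisense gene Hopxos overlaps Hopx on the other strand at a mean of 1.154 FPKM, and whether the counting used strand is not given in the sources used here.

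Emp2 (ENSMUSG00000022505, chromosome 16, 10281749 to 10313968, minus strand) was at 207, 166, 177, 195 and 221 FPKM in IPF and at 201, 188, 197, 174 and 226 in sham. The groups covered nearly the same range, and the log2 fold change was -0.032 (SE 0.097, 95% interval -0.25 to 0.18, adjusted p = 0.898 in limma).

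Akap5 (ENSMUSG00000021057, chromosome 12, 76324891 to 76334153, plus strand) was at 92.0, 68.3, 71.7, 62.8 and 71.8 FPKM in IPF. In sham it was at 67.0, 61.8, 54.9, 54.0 and 80.1 FPKM. All 5 IPF lungs were above the sham median of 61.8, and sham replicate 5 was above 4 of them. The log2 fold change was 0.21 (SE 0.124, 95% interval -0.064 to 0.48) and the adjusted p was 0.393 in limma.

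Rtkn2 (ENSMUSG00000037846, chromosome 10, 67979570 to 68059740, plus strand) was at 46.6, 42.8, 38.3, 33.4 and 48.6 FPKM in IPF and at 45.4, 37.7, 38.0, 34.1 and 42.5 in sham. Its log2 fold change was 0.079 (SE 0.110, 95% interval -0.16 to 0.32, adjusted p = 0.7497 in limma). The antisense transcript Gm16212 overlaps it on the other strand at a mean of 0.267 FPKM.

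Counted together, 0 of 8 members passed an adjusted p under 0.05 in limma, where 5.85% of the 20448 genes tested did, 3.71% higher and 2.14% lower in IPF. None passed that limit with an absolute log2 fold change above 1, against 1.14% of all genes. At an unadjusted p under 0.05 there were 2 of 8, Aqp5 and Pdpn, both lower in IPF, against 19.5% of all genes and 8.3% of all genes in that direction. None of the 8 had groups that did not overlap, against 7.29% of all genes. The log2 fold change was positive for 3 members and negative for 5, with a median of -0.048 where the median of all genes was 0.0016. The 8 values ran from -0.31 to 0.21 and lay within the range of -0.44 to 0.43 that held the middle 80% of all genes. That range covers genes of all levels from a mean of 0.1 FPKM, while the members are among the more abundant genes. With a filter at a mean of 1 FPKM, 9.55% of the genes passed in limma and no member did.

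In the lung with the fewest reads on it, the counting error of a member was 0.602 to 2.20% (1 SD). The coefficient of variation between lungs was 3.95 to 16.8% in sham and 10.2 to 19.6% in IPF. The highest lung exceeded the lowest by 1.32-fold for Ager and by 1.73-fold for Hopx, the smallest and the largest of the 8. Ager varied by 11.0% in IPF and by 3.95% in sham, and the difference in spread was not tested.

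Several members were high or low in the same lungs. In IPF replicate 4 the 8 genes averaged 0.22 below their means over the 10 lungs on the log2 scale, and 4 of them, Ager, Hopx, Pdpn and Rtkn2, had their lowest value there. In IPF replicates 1 and 5 they averaged 0.12 and 0.097 above the means, and in IPF replicates 2 and 3 0.076 and 0.078 below. In sham replicate 5 all 8 were above their means, by 0.18 on average, and Pdpn, Clic5 and Emp2 had their highest value there. The other 4 sham lungs averaged between -0.057 and 0.029. For the members as a set the IPF lungs thus ran from -0.22 to 0.12 and the sham lungs from -0.057 to 0.18, with most of each range shared.

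**Figure D2:**
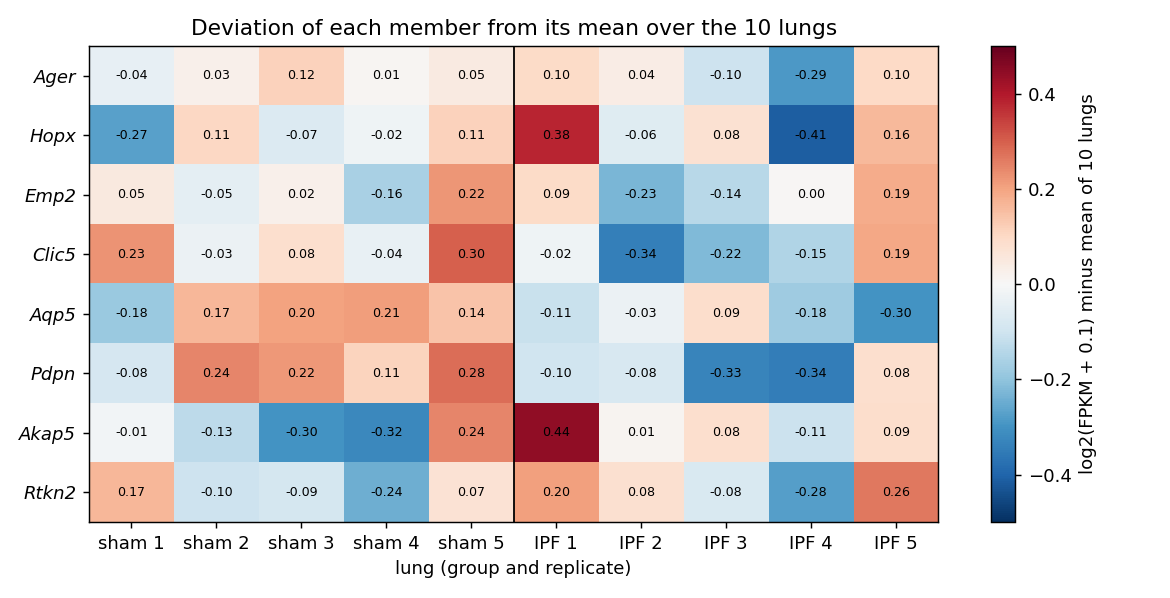
Deviation of each member in each lung from its mean over the 10 lungs, in log2(FPKM + 0.1), with genes as rows and lungs as columns. IPF replicate 4 is low for most genes (mean -0.22), sham replicate 5 is high for all 8 (mean 0.18), and Aqp5 is the row farthest from the mean profile of the 8 (root mean square difference 1.28).

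A list of 20 other genes enriched in type 1 cells was read in the same fit. Of these, 6 passed (30%, against 5.85% of all genes), 5 lower and 1 higher in IPF, and none exceeded the log2 limit of 1. The median log2 fold change was -0.19, with 16 negative and 4 positive values. At an unadjusted p under 0.05 there were 11, of which 10 were lower. These genes and the 8 members are used as markers of the same cell, and no test of the difference between the lists was made.

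Gramd2, which encodes a membrane contact site protein, was at 18.2, 16.4, 18.8, 16.9 and 21.7 FPKM in IPF. In sham it was at 39.6, 30.9, 35.1, 30.6 and 31.98 FPKM. Every IPF lung was below every sham lung, and the log2 fold change was -0.87 (SE 0.093, adjusted p = 0.000521 in limma). Gprc5a, an orphan receptor induced by retinoic acid, was at 288, 274, 291, 243 and 309 FPKM in IPF and at 401, 365, 388, 395 and 391 in sham. Again no IPF lung reached the lowest sham lung, with a log2 fold change of -0.47 (SE 0.079, adjusted p = 0.00636). Gramd2 and Gprc5a passed in all 21 alternative settings.

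The other 4 passed by less. Krt7, a keratin of simple epithelium, fell from 46.6 ± 3.52 to 37.8 ± 3.22 FPKM (log2 fold change -0.30, adjusted p = 0.0345 in limma). Lmo7, which encodes an adaptor of adherens junctions, was at 44.6 ± 9.70 FPKM in IPF and 64.8 ± 7.49 in sham (-0.56, adjusted p = 0.0344). Cyp2b10, a cytochrome P450, was at 100.6 ± 21.4 and 142 ± 17.1 FPKM (-0.52, adjusted p = 0.0489). Mal2, a protein of apical transport, was higher, at 180.1 ± 15.2 FPKM in IPF and 146 ± 9.95 in sham (0.30, adjusted p = 0.0394). Lmo7 passed in 12, Krt7 in 11, Mal2 in 9 and Cyp2b10 in 7 of 21 alternative settings. With 1 lung left out, the adjusted p reached 0.0883 for Lmo7, 0.0878 for Krt7, 0.1002 for Mal2 and 0.117 for Cyp2b10, and leaving out any of the 10 lungs lost at least 1 of the 4 calls. Without sham replicate 1, 3 of the 6 calls were left, and Lmo7 (adjusted p = 0.0732), Cyp2b10 (0.0880) and Mal2 (0.0648) did not pass.

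The remaining 14 genes of that list did not pass. They include Cav1, the coat protein of caveolae that endothelium shares, at 514 ± 59.7 FPKM in IPF and 449 ± 20.51 in sham, and Cldn18, a tight junction protein of alveolar epithelium, at 206 ± 14.8 and 233 ± 14.0 FPKM. Vegfa, by which type 1 cells signal to capillaries, was at 183 ± 26.3 and 206 ± 19.8 FPKM. Their adjusted p values were 0.301, 0.208 and 0.401 in limma. Larger differences were those of Ndnf (log2 fold change -0.44, adjusted p = 0.165), Sema3e (-0.38, 0.0881), Pxdc1 (-0.36, 0.0919) and Lama3 (-0.34, 0.254). These were lower in IPF, while 4 of the 20 genes of the list had positive values. All genes named in this paragraph were chosen after their values were seen.

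**Figure D3:**
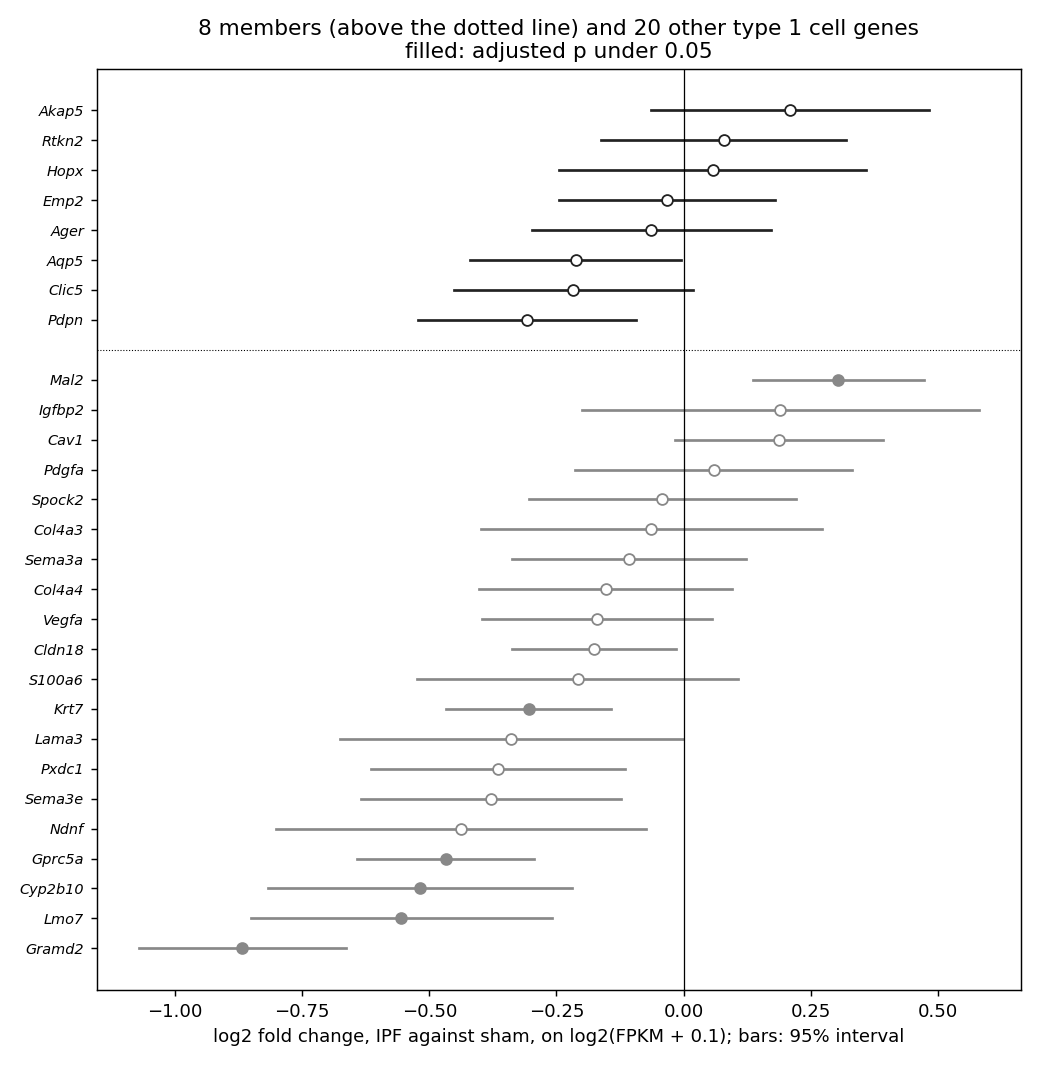
Log2 fold change (IPF against sham, on log2(FPKM + 0.1)) of the 8 members, above the dotted line, and the 20 other type 1 cell genes, below it, with 95% intervals from limma and filled points for an adjusted p under 0.05. The members' intervals of Pdpn (-0.52 to -0.094) and Aqp5 (-0.42 to -0.0054) leave out 0 before adjustment and the other 6 cross it, no member is filled, and the 6 filled genes run from Gramd2 at -0.87 to Mal2 at 0.30.

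**Figure D4:**
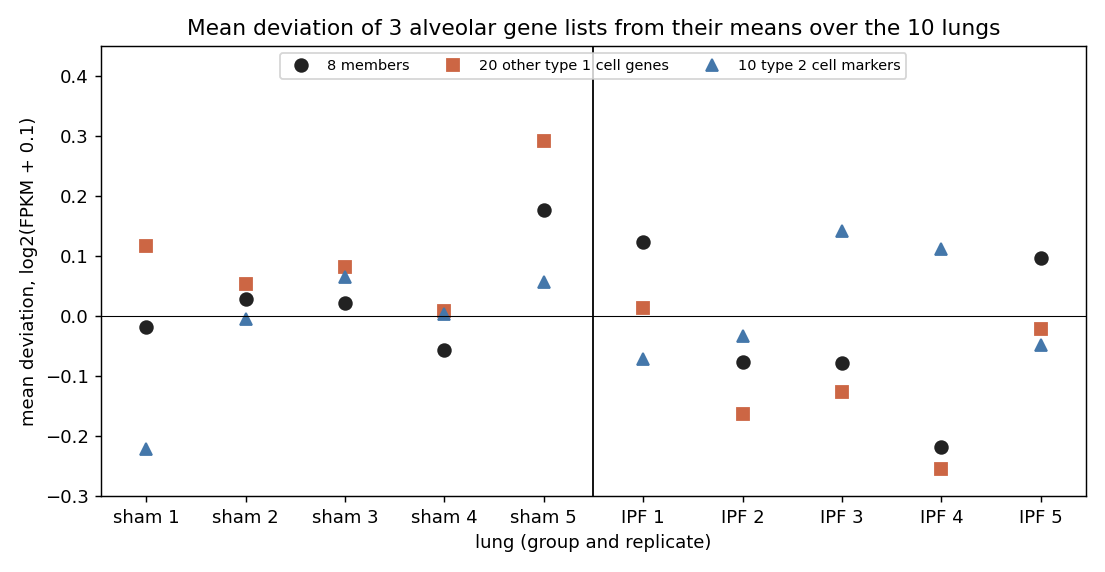
Mean deviation from the 10-lung mean, in log2(FPKM + 0.1), of the 8 members (circles), the 20 other type 1 cell genes (squares) and 10 type 2 cell markers (triangles) in each lung. The other type 1 genes run from -0.25 to 0.013 in IPF and from 0.0080 to 0.29 in sham, while the members of the IPF lungs fall on both sides of 0.

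Markers of type 2 cells, from which type 1 cells descend, were read in the same lungs. Of 10, 1 passed, and the median log2 fold change was -0.0089. Lpcat1, an enzyme of surfactant lipid synthesis, was higher in IPF at 123 ± 11.1 FPKM against 97.6 ± 3.04 in sham (0.33, adjusted p = 0.0163 in limma), with every IPF lung above every sham lung. Sftpb, another surfactant protein, named after its values were seen, also had groups that did not overlap but in the other direction, at 1435 ± 123 FPKM in IPF and 1694 ± 89.8 in sham, without passing (-0.24, adjusted p = 0.305). Sftpc, the surfactant protein that defines the cell, was at 14863 ± 771 FPKM in IPF and 14428 ± 2848 in sham (adjusted p = 0.946), and the sham range began at 9437, in sham replicate 1, without which its log2 fold change turned from 0.069 to -0.077, while with quantile normalization it was 0.54 (adjusted p = 0.393). Lyz2, which macrophages share, was at 4414 ± 556 and 4632 ± 805 FPKM (adjusted p = 0.923).

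None of 10 transcriptional regulators of alveolar epithelium passed, and their median log2 fold change was 0.11, with 8 positive and 2 negative values. At an unadjusted p under 0.05 there were 5 of 10, against 19.5% of all genes. Named after their values were seen, these were Gata6 (0.22), Foxa1 (0.21), Foxa2 (0.20) and Yap1 (0.15) with positive log2 fold changes and Klf5 (-0.31) with a negative one, with adjusted p values of 0.106 to 0.222 in limma. Nkx2-1, the lineage factor that both alveolar epithelial cells need, was at 67.4 ± 5.96 FPKM in IPF and 64.6 ± 4.63 in sham (adjusted p = 0.707 in limma). Cebpa, a factor of type 2 cells, was at 61.0 ± 6.71 and 60.6 ± 3.60 FPKM (adjusted p = 0.984). Of 8 genes of the transitional state between type 2 and type 1 cells, Areg, an EGF family ligand, passed, at 4.25 ± 0.865 FPKM in IPF and 7.33 ± 1.91 in sham (-0.76, adjusted p = 0.0253). It rested on 74 to 213 reads per lung and was lost when any of 5 lungs was left out, IPF replicates 1, 2 and 4 and sham replicates 3 and 5, with an adjusted p of up to 0.0661. The keratins of that state, Krt8 and Krt19, had log2 fold changes of -0.31 and -0.34 (adjusted p = 0.148 and 0.0805), and Krt19 passed without sham replicate 1 (0.0490) and without IPF replicate 3 (0.0341). The list had 6 negative and 2 positive values with a median of -0.16. Named after their values were seen, Sfn, which encodes the epithelial 14-3-3 sigma, was at 18.5 ± 4.32 and 11.3 ± 2.31 FPKM (0.69, adjusted p = 0.0558), with 4 of 5 IPF lungs above every sham lung, and the keratin Krt18 was at -0.076 (adjusted p = 0.789).

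Close relatives of the members were taken as a list of 8, of which 1 passed, 6 were negative and 2 positive, with a median log2 fold change of -0.15. Clic3, of the same family as Clic5, was at 95.2 ± 6.85 FPKM in IPF and 120 ± 12.8 in sham (-0.33, adjusted p = 0.0433 in limma), with every IPF lung below every sham lung. That call was lost when any lung but sham replicate 1 was left out, with an adjusted p of up to 0.106. Clic4, which endothelium carries at high level, also had groups that did not overlap, at 192 ± 9.16 and 219 ± 6.16 FPKM, without passing (adjusted p = 0.101; 0.0455 without IPF replicate 5). Pmp22, the myelin protein gene of the same family as Emp2, was at 272 ± 14.97 and 279 ± 8.82 FPKM (adjusted p = 0.790).

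Capillary and mesenchymal neighbours of the type 1 cell were read as lists of 9 and 6 genes. In the capillary list 2 passed, both higher in IPF with groups that did not overlap and in all 21 alternative settings. Aplnr, the apelin receptor of general capillaries, was at 39.5 ± 10.0 FPKM in IPF and 21.7 ± 1.76 in sham (0.82, adjusted p = 0.0103 in limma), and Cldn5, the endothelial claudin, at 451 ± 20.7 and 309 ± 42.8 (0.56, adjusted p = 0.0107). The capillary list had 7 positive and 2 negative log2 fold changes, with a median of 0.20. In the alveolar fibroblast list 2 passed, both higher, while the other 4 of its 6 genes were negative without passing (Tcf21 -0.24, Col1a1 -0.20, Col1a2 -0.14 and Npnt -0.0050) and the median was -0.075. Pdgfra, the receptor of lipofibroblasts and alveolar myofibroblasts, was at 57.4 ± 3.95 and 44.997 ± 4.30 FPKM (0.35, adjusted p = 0.0212), and was lost without IPF replicate 4 or sham replicate 2. Fgfr4 was at 18.2 ± 3.53 and 12.2 ± 0.962 FPKM (0.55, adjusted p = 0.0245), and was lost without any of IPF replicates 1, 2 and 4 and sham replicates 2, 3 and 5, with adjusted p values of up to 0.0599 and 0.0633.

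Airway and macrophage markers were read for the other cells a piece of lung holds, and none of 6 ciliated, 5 secretory, 4 tested basal or 5 macrophage genes passed. Foxj1 and Dynlrb2 of ciliated cells were at 7.24 to 30.7 and 11.0 to 37.0 FPKM in IPF, the highest of both in replicate 3, and at 7.27 to 18.6 and 12.0 to 22.2 in sham. Scgb1a1 and Cyp2f2 of club cells were at 10241 ± 9570 and 330.0 ± 265 FPKM in IPF and at 16598 ± 4264 and 376 ± 80.7 in sham. Both had negative log2 fold changes, but the other 3 secretory genes were positive (Scgb3a2 0.55, Bpifa1 0.29 and Scgb3a1 0.17), and the median of the 5 was 0.17. The 6 ciliated genes were all negative with a median of -0.31, and 4 of 5 macrophage genes and 3 of 4 basal genes were positive, with medians of 0.28 and 0.14. In the IPF lungs the SD of Scgb1a1 was close to its mean, which no member approached. Basal markers were near 0, with Krt15 at 0.148 to 1.87 FPKM, Ngfr at 0.190 to 0.844 and Krt5 below the filter. Without IPF replicate 3, Cyp2f2 passed, at a log2 fold change of -0.81 where it had been -0.43 (adjusted p = 0.0308 in limma). The macrophage genes Chil3 and Ear2 had log2 fold changes of 0.15 and 0.36 (adjusted p = 0.762 and 0.194), and Ear2 passed without sham replicate 5, at 0.48 (0.0384). The part of these cells in the members' values was not tested.

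**Figure D5:**
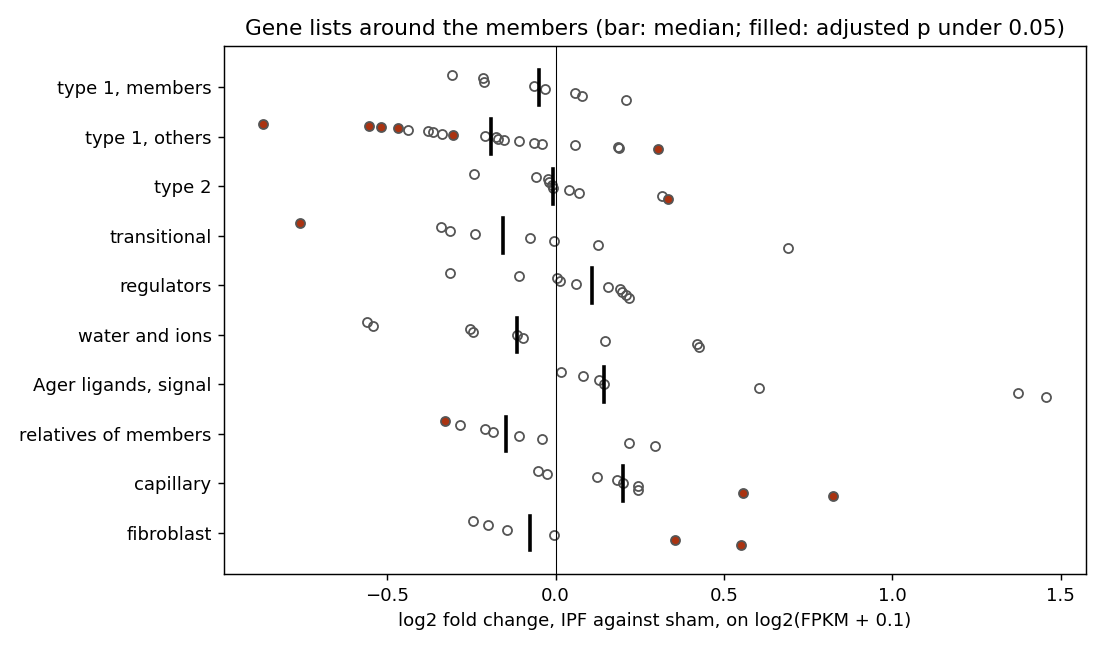
Log2 fold change (IPF against sham) of each tested gene of 10 lists of alveolar cells and their neighbours, 1 row per list, with filled points for an adjusted p under 0.05 in limma and a bar at the list's median. The members lie around 0 (median -0.048) with no filled point, and the other type 1 genes lie mostly below 0 (median -0.19) with 6.

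The genes whose pattern over the 10 lungs was most like that of the members were found by the root mean square difference between standardised profiles, among 8156 genes with a mean of at least 5 FPKM. The 5 closest were Cadm1 (0.373), an adhesion molecule of lung epithelium, Scnn1g (0.432), the gamma subunit of the epithelial sodium channel, Pmp22 (0.449), Msn (0.473), the membrane-cytoskeleton linker moesin, and Cir1 (0.496), a transcriptional corepressor. The members themselves were at 0.566 (Ager) to 1.28 (Aqp5), and the median gene was at 1.32. None of the 5 passed the test between the groups, with log2 fold changes from -0.25 for Scnn1g to 0.012 for Cir1.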

How the data were processed

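The authors sequenced mRNA of whole lung in pairs of 150 bp, used Fastp for trimming, HISAT2 for alignment and StringTie for quantification, and deposited FPKM values, 1 for each gene and lung, with no replicates pooled. The submitters' processing notes also name Bowtie 0.12.2 and the builds hg38, GRCm38 and mm10. The library kit is KAPA mRNA HyperPrep in the methods and NEBNext Ultra in the sample records. The methods name GRCm39, but all 8 members lie at their GRCm38 positions in the table. Every value of up to 500 reads was a whole number of reads within 0.05 reads, so depth could be recovered. FPKM removes differences in depth and gene length, and it is relative: a change in abundant genes shifts all others.

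The 8 members and the 17 other lists were chosen with earlier results of these data known. From the FPKM values, log2(FPKM + 0.1) was fitted for IPF against sham with limma 3.58.1 (trended empirical Bayes) in R 4.3.3, without covariates, on 20448 genes with a mean of at least 0.1 FPKM. P-values were two-sided and adjusted by the Benjamini-Hochberg method over all of them. A fold change on this scale understates that of low genes. The study used DESeq2 on counts, which was not used here. The fit was tested on simulated data. Python 3.11.15 (pandas 2.3.3, numpy 2.4.6) made the tables.

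The genes named are the members, every gene of a list with an adjusted p under 0.05 and, where fewer than 2 passed, the 2 with the highest mean, and the 5 closest profiles. Exceptions are stated, and 1 gene that the rule names is not reported here. A symbol with more than 1 row was read from the row with the higher mean. Alternatives were pseudocounts of 1 and 0.01, no filter or a mean of at least 1 FPKM, array weights, a constant prior variance, quantile normalization or median-of-ratios scaling, voom with TMM on recovered reads, a block for the replicate number, autosomal genes alone, and each lung left out.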

Additional observations from a re-analysis of the deposited data

Results flagged for a closer look

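Each member was looked at in each group of 5 lungs for a lung far from the rest, by Dixon's ratio of the gap to the range. Of 16 such groups, 1 was picked out, and chance picks out about 1 in 20. Aqp5 in sham replicate 1 was at 95.9 FPKM, with the nearest sham lung at 120.1, a ratio of 0.828 against the critical value of 0.71. The same library had the lowest Sftpc of the 10 and the most genes above 0.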

How the results depend on the processing

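No member exceeded both limits under any of the 21 alternatives, and the median of all genes stayed within 0.015 of 0 under every scaling. The number of members with an adjusted p under 0.05 was 0 as reported and 1, Pdpn, with quantile normalization (adjusted p = 0.0302) and with array weights (0.0189), and 0 to 1 with 1 lung left out. With voom on the recovered reads 0 members passed (smallest adjusted p = 0.0628) and 1478 genes in all. Of the 20 other type 1 genes, 6 passed as reported, 2 without a filter, 2 without a variance trend and 2 to 5 with 1 lung left out. With array weights 7 passed, Pxdc1 among them, and with voom on the recovered reads 7 passed, Sema3e among them. Of the type 2 markers, 1 passed as reported, 0 with quantile normalization and 2 with array weights. Among all genes 1196 passed, and 775 (without IPF replicate 4) to 1620 (without IPF replicate 5) with 1 lung left out. With the replicate number as a replicate block, 0 members, 3 other type 1 genes and 1045 genes in all passed. Lungs sharing a number did not deviate together (correlations from -0.020 to 0.095), 3 of 5 correlated best with their own number, and the numbers were not read as pairs.

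Signs changed only in log2 fold changes close to 0 or of markers that vary widely, none of which passed the test. With array weights Hopx was at -0.019, Cebpa at -0.00034 and Sftpc at -0.028, with quantile normalization Cebpa was at -0.013, Lyz2 at 0.077 and App at -0.071, and with median-of-ratios scaling Cebpa was at -0.0013. With 1 lung left out, Ager ran from -0.097 to 0.000062, Hopx from -0.031 to 0.17, Emp2 from -0.083 to 0.021, Cebpa from -0.051 to 0.046, Sftpc from -0.077 to 0.12, App from -0.030 to 0.048, Msln from -0.031 to 0.33, Foxj1 from -0.51 to 0.0094 and Ngfr from -0.035 to 0.35. The causes were not tested. Over all named genes, 1181 values kept their sign and their side of the limit, 73 lost the call, 15 gained it and 24 changed sign. Among the single genes, Clic3 lost its call without a filter and without a variance trend, Fgfr4 without a variance trend, Areg with the block, and Lpcat1 and Pdgfra with quantile normalization. Calls were gained by Krt19 (adjusted p = 0.0209), Krt8 (0.0496), Clic4 (0.0436) and Lyve1 (0.0258) with array weights and by Krt19 with voom (0.0462). Over the alternatives that kept every lung, Ager ran from -0.23 to -0.064, Rtkn2 from 0.022 to 0.093, Emp2 from -0.068 to -0.021 and Sftpc from -0.028 to 0.54. The counting error of a member was at most 2.20% in any lung.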
